A study of Mus musculus with 9 samples.

Results

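T cells were followed in the lactating mammary gland through 9 genes: Cd3d, Cd3e, Cd3g, Lck, Cd8a, Cd4, Cd2, Ccr7 and Ms4a4b. Every probe that the array's design names for one of them was used, which gave 16 of 41174 probes and 9 of the 27962 names in the design, and no probe under another name carried an accession of these genes. RNA came from mammary gland number 4 of 4 WT and 5 hNAG-1 dams on lactation day 2 (L2), all listed under the strain background C57BL/7 and, by the study's methods, taken after their 4th litter. The hNAG-1 dams carry a transgene for human NAG-1, a secreted protein of the TGF-beta superfamily also named GDF15, which the study's methods describe as expressed ubiquitously. They name more than 1 transgenic line, and the labels do not give the line of each dam. The age of the dams in weeks is not given in the labels. Each gland was processed singly and hybridized to 1 Agilent 1-color array, so that an array stands for a mouse.

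A T cell recognizes antigen through its T cell receptor, which has no signaling domain of its own. The CD3 chains (Cd3d, Cd3e, Cd3g) carry the signal inwards, the coreceptors CD4 and CD8 bind MHC molecules on the other cell, and the kinase LCK, which is held by these coreceptors, phosphorylates the CD3 chains. T cells lie in the epithelium and stroma of the mammary gland, and the number 4 gland of the mouse also holds a lymph node in its fat pad. Whether that node was removed before RNA extraction is not given in the sources used here.

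All levels are scaled intensities, that is, the deposited intensity after the 75th percentile of every array was set to a common value of 797. Single levels were compared only within a probe, and the sums over a list of genes given further on add, on each array, the level of the brightest probe of each gene (highest mean log2 level), so that bright probes weigh most in them. The arrays lay on 3 slides, with WT 1 on slide 1, hNAG-1 1 to 4 on slide 2, and WT 2 to 4 with hNAG-1 5 on slide 3. Of the 9 genes, 8 had their brightest probe well above background on all arrays. Before scaling WT 2 was the brightest array, with a 75th percentile of 1185 against 533 to 956 on the others. Of its features 76.1% were well above background, against 60.3% in hNAG-1 2 and 59.8% in hNAG-1 4. Array WT 2 stood apart for these genes. It was the highest of the 9 arrays for 15 of 16 member probes, against 11.3% of all probes. It was at least 2-fold above the next highest array for 13 of 16, against 2.49% of all probes, and at least 5-fold above the median of the other 8 arrays for 12 of 16, against 2% of all probes. WT 1, WT 2 and hNAG-1 4 were the 3 highest arrays for 10 of 16 member probes, against 1.73% of all probes. These limits were chosen after the values were seen, so the counts are a description, and the comparison of genotypes is given with and without WT 2. In whole tissue, fewer T cells and less RNA per T cell cannot be told apart.

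The sequences of 8 probes are given to show which stretch of each transcript was read. They were chosen as probes on which the results turn and in which at least 1 reading frame runs without a stop codon. They are written 5′ to 3′ as the scanner files list them, and capitals mark the 15 bases that a pair of Ms4a4b probes share.
Cd3d A_51_P285206: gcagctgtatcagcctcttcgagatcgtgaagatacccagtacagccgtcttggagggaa
Cd3g A_51_P260889: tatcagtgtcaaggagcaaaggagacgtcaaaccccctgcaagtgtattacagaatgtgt
Cd8a A_52_P150547: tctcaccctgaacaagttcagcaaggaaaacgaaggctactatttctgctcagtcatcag
Cd4 A_52_P383089: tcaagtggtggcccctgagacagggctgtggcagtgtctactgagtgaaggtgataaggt
Cd2 A_51_P126067: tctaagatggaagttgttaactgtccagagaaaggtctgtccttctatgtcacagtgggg
Ms4a4b A_51_P136289: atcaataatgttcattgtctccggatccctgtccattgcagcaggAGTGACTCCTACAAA
Ms4a4b A_51_P136288: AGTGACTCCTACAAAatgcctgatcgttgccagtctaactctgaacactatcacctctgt
Ms4a4b A_52_P306949: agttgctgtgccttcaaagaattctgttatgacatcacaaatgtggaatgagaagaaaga
Positions are those of the array's design in build mm7. The Cd3d probe lies at chr9:44920433-44920664 on the plus strand and the Cd3g probe at chr9:44907978-44908562 on the minus strand. The Cd8a probe is at chr6:71391822-71391881 (plus), the Cd4 probe at chr6:124894079-124894138 (minus) and the Cd2 probe at chr3:101074696-101077875 (minus). The Ms4a4b probes lie on the plus strand at chr19:11134887-11137970, chr19:11137956-11139315 and chr19:11130085-11130144, in the order printed. The spans of the Cd3d, Cd3g and Cd2 probes and of the first 2 Ms4a4b probes exceed the 60 bases of a probe, so these probes join stretches that are apart in the genome. No annotation of mm7 was used, and exon or UTR is therefore not stated.

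The signaling chains of the receptor were read by probes whose levels mostly varied together from mouse to mouse. The Cd3d probe read 985, 5388, 196 and 172 in WT 1 to 4, and 199.7, 116, 187, 699 and 211 in hNAG-1 1 to 5. The Cd3g probe read 308, 1875, 125 and 103 in WT, and 100.3, 91.9, 97.1, 279 and 153 in hNAG-1. For both genes WT 2 was highest, WT 1 and hNAG-1 4 followed, the other 6 arrays reached no more than 211 and 153, and the genotypes overlapped. The log2 difference of hNAG-1 minus WT was -1.50 for Cd3d (SE 0.99) and -1.17 for Cd3g (SE 0.79), and neither passed the test (exact permutation test, two-sided p = 0.238 and 0.246). Without WT 2 these differences were -0.49 and -0.27.

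Cd3e, the third CD3 chain, was read by 2 probes. Probe A_51_P455681 did not follow Cd3d and Cd3g and was nearly level, from 131 to 223 in WT and from 112 to 223 in hNAG-1, with a log2 difference of -0.17 (SE 0.24, exact permutation p = 0.524). Probe A_52_P86404 was well above background only on WT 2, where it read 56.9, and no fold is given for it because the bound of hNAG-1 lay above the WT mean. On the first of these probes hNAG-1 1 and WT 2 both read 223.

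LCK, the kinase that starts signaling at the receptor, was read by 1 probe. It gave 662, 4005, 177 and 148 in WT 1 to 4, and 164, 161, 172, 492 and 186 in hNAG-1 1 to 5. WT 2 was 6.05-fold above the next highest array, WT 1, and hNAG-1 4 was 2.93-fold above the median of the other hNAG-1 arrays. The lowest of the 9 levels was in WT 4. The log2 difference was -1.28 (SE 0.90, exact permutation p = 0.262) and -0.30 without WT 2 (SE 0.57, p = 0.679).

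Of the coreceptors, Cd8a, a chain of CD8 found on cytotoxic T cells, was read by 3 probes. The brightest, A_51_P345121, read 526, 2687, 133 and 87.0 in WT, and 96.7, 61.3, 78.2, 372 and 119 in hNAG-1. Probe A_52_P443334, printed 10 times on each array, read 197, 1141, 84.6 and 64.1 in WT, and 60.3, 40.0, 48.0, 146 and 60.6 in hNAG-1. Probe A_52_P150547 read 86.0, 395, 67.7 and 48.4 in WT, and 31.9, 12.1, 15.5, 54.5 and 63.6 in hNAG-1, and was well above background on 7 arrays. All 3 probes were highest in WT 2 and lowest in hNAG-1 2. On the last probe hNAG-1 4 and hNAG-1 5 lay above WT 4, so the genotypes overlapped. hNAG-1 2 and 3 were the arrays where it was not well above background, so its fitted log2 difference, -1.82 (SE 0.70), is not a measured fold. It had an unadjusted p of 0.0282 by limma, an adjusted p of 0.661 and an exact two-sided permutation p of 0.0635. The difference was -1.17 without WT 2 (SE 0.58, limma unadjusted p = 0.0766), -0.82 with normexp background correction and -0.78 with slide as a block. The other 2 probes gave -1.63 (exact permutation p = 0.167) and -1.56 (p = 0.103), and -0.66 and -0.69 without WT 2.

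CD4, the coreceptor of helper T cells, was read by the member probe with the smallest spread in WT (SD 0.13 on the log2 scale). This probe, A_52_P383089, also printed 10 times, gave 69.0, 69.8, 58.4 and 61.3 in WT 1 to 4, and 61.5, 34.2, 38.3, 41.8 and 86.8 in hNAG-1 1 to 5. hNAG-1 5 was the highest array and hNAG-1 2 to 4 were the lowest. WT 2 was not raised here, at 1.17 times the median of the other 8 arrays, against 24.9 times for the brightest Cd8a probe, and this pair of ratios was not tested. The log2 difference was -0.39 (SE 0.27, exact permutation p = 0.198), and 0.46 with slide as a block. The second Cd4 probe, A_51_P236573, was well above background only on WT 2, at 50.4, and gives no fold. WT 2 was its highest array, so the Cd4 probes differ in whether WT 2 was raised.

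CD2 is an adhesion molecule of T cells and NK cells that binds CD48 in the mouse. Its probe read 173, 994, 138 and 105 in WT, and 78.8, 44.1, 49.3, 141 and 128 in hNAG-1. WT 2 was 5.73-fold above WT 1, and hNAG-1 4 and 5 lay within the range of the other WT arrays. The log2 difference was -1.50 (SE 0.66), with an unadjusted p of 0.0487 by limma, an adjusted p of 0.661 and an exact two-sided permutation p of 0.0714. Without WT 2 it was -0.78 (SE 0.43, limma unadjusted p = 0.106).

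CCR7 is the chemokine receptor that leads naive T cells into lymph nodes along CCL19 and CCL21. Its probe read 252, 1861, 40.4 and 35.2 in WT 1 to 4, and 22.2, 26.0, 38.2, 110.2 and 50.6 in hNAG-1 1 to 5. It showed the widest range of the member probes, 83.6-fold from hNAG-1 1 to WT 2, and WT 2 was 47.3 times the median of the other 8 arrays. It was well above background on 8 arrays. The log2 difference was -1.95 (SE 1.11, exact permutation p = 0.167), and -0.77 without WT 2 (SE 0.75, p = 0.446).

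Ms4a4b encodes a membrane protein of the MS4A family that is expressed by T cells. Of its 4 probes, A_51_P136294 read 1259.8, 8997, 383 and 328 in WT, and 304, 264, 347, 1443 and 327 in hNAG-1. Probes A_51_P136288 and A_51_P136289, which share 15 bases and are not independent, ran from 169.8 to 4598 and from 271 to 5045 in WT, and from 166 to 1121 and from 250.1 to 1165 in hNAG-1. On these 3 probes hNAG-1 4 came next after WT 2, and above WT 1. Their log2 differences were -1.38, -1.03 and -0.95, none of which passed the test (exact permutation p = 0.230, 0.421 and 0.421). Without WT 2 they were -0.36, -0.01 and -0.01.

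The fourth Ms4a4b probe, A_52_P306949, behaved differently from the other 3. It read 1034, 2170.4, 1449 and 1365 in WT 1 to 4, and 608, 407, 481, 766 and 894 in hNAG-1 1 to 5. WT 2 was 1.5-fold above WT 3, WT 1 was the lowest WT array, and every hNAG-1 array lay below every WT array. It was the only one of the 16 member probes with no overlap, against 0.695% of all probes below in this way. The WT level averaged 1505 ± 479 (SD, n = 4), and the level of hNAG-1 dams 631 ± 200.3 (SD, n = 5). The log2 difference was -1.26 (SE 0.29), with an unadjusted p of 0.00165 by limma, an adjusted p of 0.661 over all probes and an exact two-sided permutation p of 0.0159, where 0.00794 is the smallest p that 126 splits can give. Without WT 2 it was -1.07 (SE 0.28, limma unadjusted p = 0.00523), the genotypes still did not overlap, as for 1.85% of all probes, and the exact permutation p was 0.0357 with 0.0179 as the smallest possible. With slide as a block it was -0.86 (limma unadjusted p = 0.0767), and -0.65 when WT 2 was also left out (limma unadjusted p = 0.151). The probes of Ms4a4b therefore disagree, and which of them follows the transcript was not tested.

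**Figure D1:**
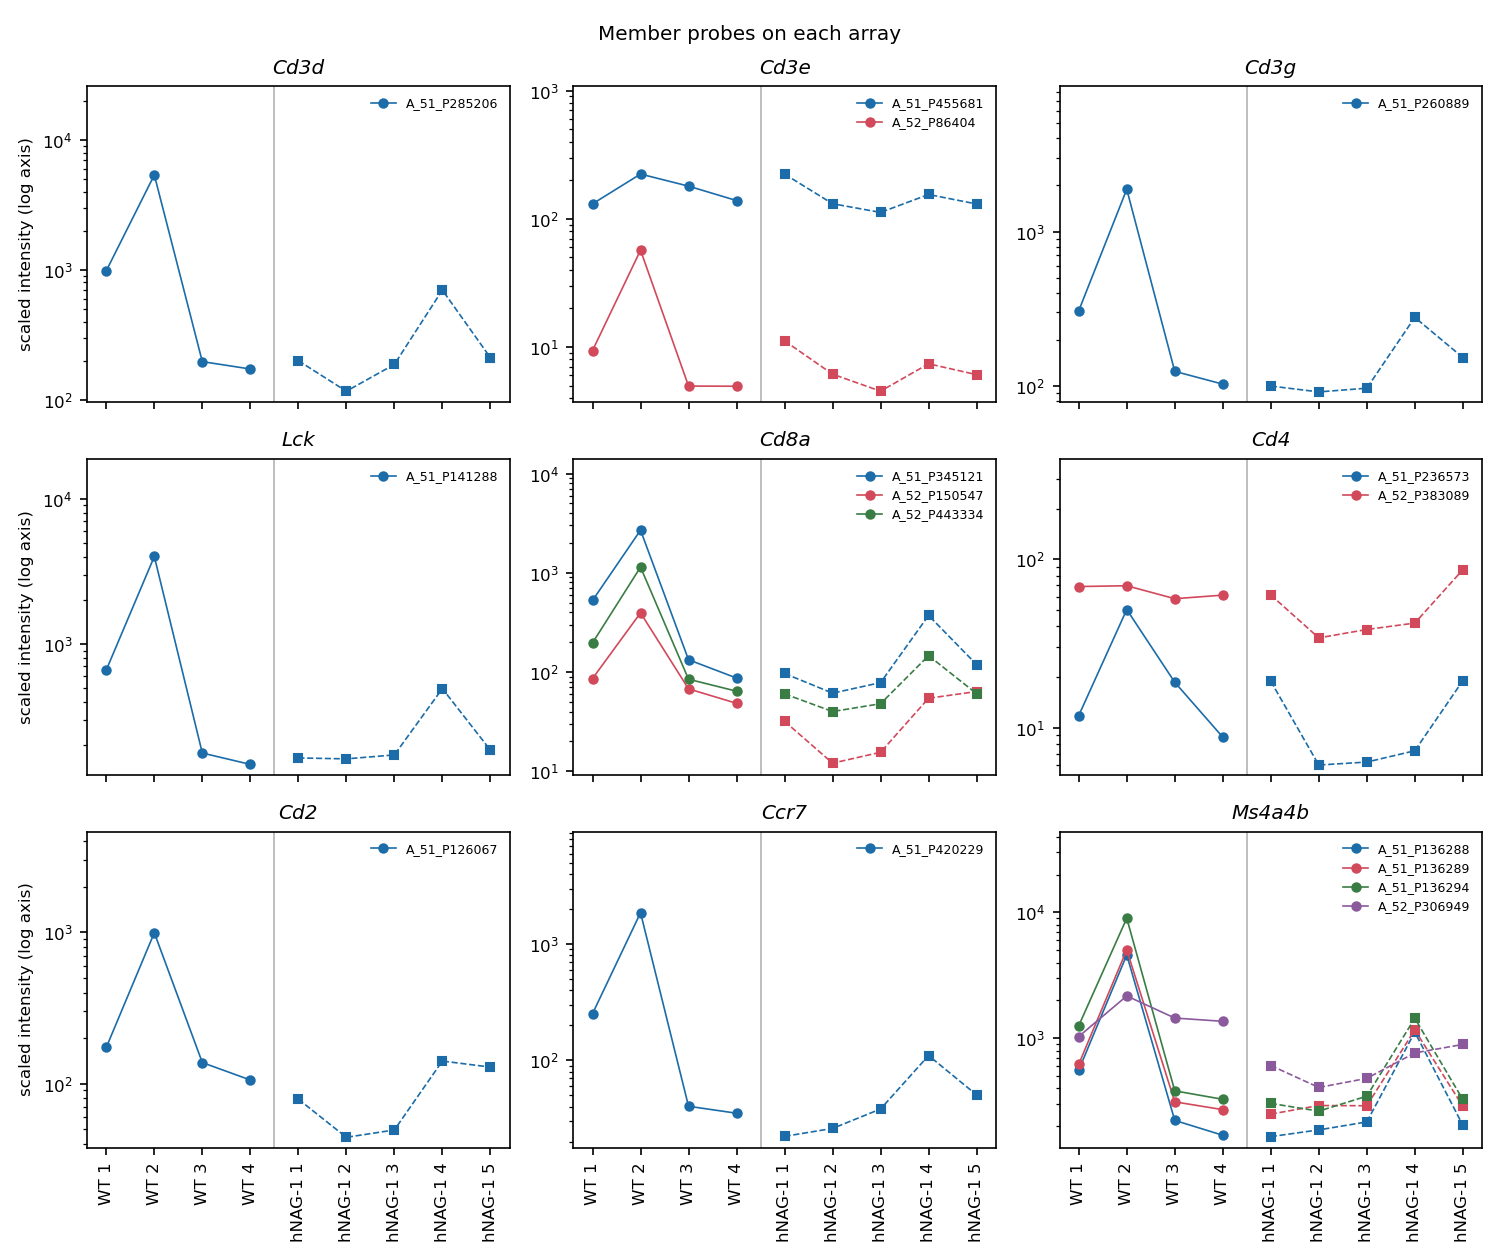
Scaled intensity (log axis) of each member probe on every array, 1 panel per gene, with circles for WT and squares for hNAG-1. Lines only join the points of a probe. WT 2 is the highest array for all probes but the upper Cd4 probe, and Ms4a4b A_52_P306949 is the only probe whose hNAG-1 levels, 407 to 894, all lie below the WT levels, 1034 to 2170.4.

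Taking the member probes as a list, all 16 had a log2 difference below 0, against 52.1% of all probes. The median was -1.27 against -0.02 for all probes. These counts hold 2 probes, Cd3e A_52_P86404 and Cd4 A_51_P236573, that no hNAG-1 array measured well above background. Of the member probes, 3 of 16 were lower in hNAG-1 at an unadjusted p under 0.05 by limma, where the share of all probes was 4.45%, and none was higher, against 1.15%. The 3 were the Cd8a probe A_52_P150547, the Cd2 probe and the Ms4a4b probe A_52_P306949. WT 2 was the highest array on all 3. After adjustment over all probes 0 of 16 passed by limma, against 0.00243% of all probes, and the methods' test also gave 0 after adjustment, with 1 probe at an unadjusted p under 0.05. Of all probes called without adjustment 79.5% were lower in hNAG-1, a share that was 42.5% with quantile normalization, 27.6% with arrays scaled to their median, 97.1% with no scaling and 9.19% with slide as a block.

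The list depended on WT 2. When that array was left out, the median log2 difference of the member probes was -0.35 against -0.04 for all probes, 15 of 16 were below 0 against 55.4%, and 1 of 16 was lower at an unadjusted p under 0.05 against 3.69%. The intervals were wide in both fits. For Lck the 95% interval ran from -3.31 to 0.74 with all arrays and from -1.60 to 1.01 without WT 2, and for Ccr7 from -4.44 to 0.54 and from -2.50 to 0.95. When hNAG-1 4 was left out instead, all 16 stayed below 0, against 51.4%, with a median of -1.56, and 3 of 16 were lower at an unadjusted p under 0.05, against 2.8%.

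Slide 3 is the only slide with both genotypes. With slide as a block, the comparison rests on hNAG-1 5 against WT 2 to 4, and the median log2 difference was -1.13 for the member probes and 0.19 for all probes. Of the 16, 15 were below 0, against 31.2%, and none passed an unadjusted p under 0.05 as lower, against 0.699%. With slide as a block and WT 2 left out, 5 of 16 were below 0, against 34.9%, none was lower at an unadjusted p under 0.05, against 1.41%, and the median was 0.15 beside 0.15 for all probes. In this fit hNAG-1 5 is set against WT 3 and WT 4. On that slide Cd3d read 211 in hNAG-1 5 beside 196 and 172, Cd3g 153 beside 125 and 103, and Ccr7 50.6 beside 40.4 and 35.2.

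**Figure D2:**
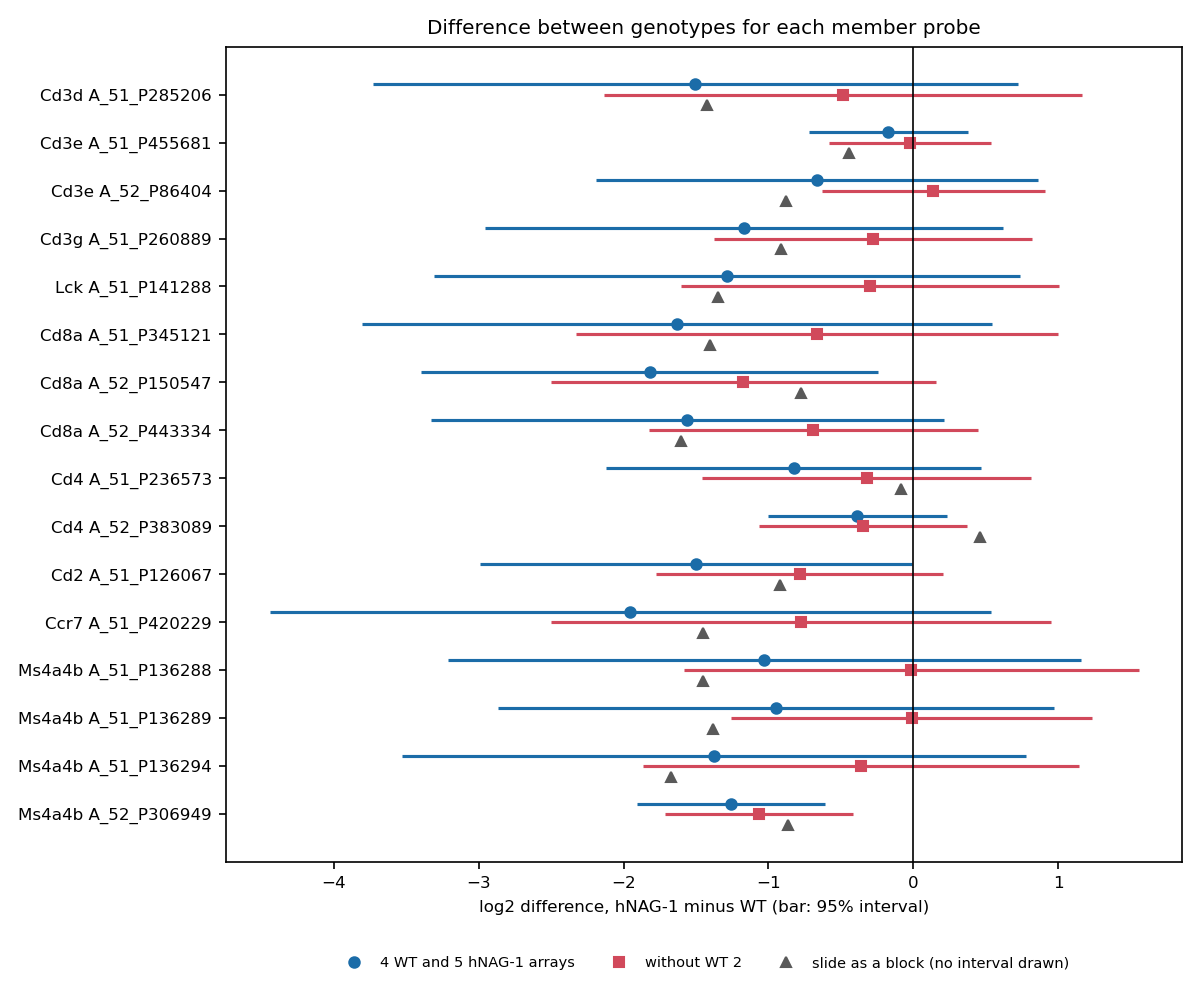
Log2 difference (hNAG-1 minus WT) of the 16 member probes, with bars for the 95% interval of limma. Circles use all 9 arrays, squares leave out WT 2, and triangles have slide as a block. Cd3e A_52_P86404 and Cd4 A_51_P236573 had no hNAG-1 level well above background. With all arrays 3 intervals exclude 0, and without WT 2 only that of Ms4a4b A_52_P306949 does.

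Other genes of T cells were counted from a list of 43 genes, of which 41 were matched and each was taken at its brightest probe. That probe was well above background on all arrays for 27 of the 41, and on none for Cd40lg. Their log2 difference was below 0 for 37 and above 0 for 4, against 52.1% of all probes below 0. The median was -1.04, and -0.25 without WT 2, beside -0.02 and -0.04 for all probes. At an unadjusted p under 0.05 by limma, 4 genes were lower and none was higher, against 4.45% and 1.15% of all probes. After adjustment 0 passed. Over all 74 probes of the list, 8 were lower at that limit, against the 4.45% of all probes given above. WT 2 was the highest array for 33 of the 41 genes, against 11.3% of all probes.

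Of these 4 genes, Trat1 encodes an adaptor bound to the receptor and is counted here with the signaling genes. It read 38.8, 118, 79.0 and 25.7 in WT, and 13.7, 5.92, 10.8, 15.3 and 36.7 in hNAG-1, where it was well above background on 1 array. Its fitted log2 difference, which therefore rests in part on levels near background and is not a measured fold, was -2.01 (limma unadjusted p = 0.00649, exact permutation p = 0.0238), and -1.64 without WT 2 (limma unadjusted p = 0.0224). Tcrb-J, the design's name for a probe on a transcript of the receptor's beta chain, stands in the list for the beta chain, and it was not matched to a constant region. It read 169.8, 165, 162 and 140.2 in WT, and 97.7, 40.2, 39.6, 93.3 and 156 in hNAG-1. WT 2 was not raised on this probe, and the 4 hNAG-1 arrays of slide 2 lay below all others while hNAG-1 5 lay within the WT range. The log2 difference of Tcrb-J was -1.10 (limma unadjusted p = 0.0223, exact permutation p = 0.0317), and 0.0032 with slide as a block.

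The others act in signaling below the receptor. Grap2, the adaptor that joins SLP-76 to LAT, read 135, 937, 169 and 89.2 in WT, and 44.2, 62.4, 40.4, 106 and 51.6 in hNAG-1, with a log2 difference of -1.87 (limma unadjusted p = 0.0150, exact permutation p = 0.0238) and -1.15 without WT 2 (limma unadjusted p = 0.0109). Ptpn22, a phosphatase that restrains LCK, read 959.8, 2195, 901 and 825 in WT, and 588, 571, 523, 825 and 681 in hNAG-1, with a log2 difference of -0.83 (limma unadjusted p = 0.0200, exact permutation p = 0.0238) and -0.51 without WT 2 (limma unadjusted p = 0.0228). For both genes 4 of the 5 hNAG-1 arrays lay below every WT array, and hNAG-1 4 reached the lowest of them. The same 4 genes passed the unadjusted limit of limma with and without WT 2, where 4.45% and 3.69% of all probes were lower. But without WT 2 the exact permutation p was 0.0714 for Trat1, 0.0893 for Tcrb-J and 0.0536 for both Grap2 and Ptpn22, and none of these passed. With slide as a block, no gene of the list was lower at the unadjusted limit, against 0.699% of all probes. Only Cd40lg was higher, the gene with no array well above background.

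By role, 4 of 4 matched genes of the receptor complex (Tcra, Tcrb-J and Tcrg, as the design names the receptor chains, and Cd247) had a log2 difference below 0, and the largest was that of Tcra, the alpha chain, at -1.75 (exact permutation p = 0.238). Among coreceptors and surface molecules 7 of 9 were below 0, led by the inhibitory receptor Cd5 at -1.49 (exact permutation p = 0.127). Of the signaling genes 15 of 16 were below 0, with Trat1, given above, farthest from 0. Of the transcription factors 5 of 6 were below 0, with Lef1 farthest at -2.07 (exact permutation p = 0.206), a fitted value that rests in part on levels near background, since Lef1 was well above background on 2 WT and 3 hNAG-1 arrays. Of the homing and survival genes 6 of 6 were below 0, led by the interleukin 7 receptor chain Il7r at -1.84 (exact permutation p = 0.127). Without WT 2 the values of Tcra, Cd5, Lef1 and Il7r were -0.66, -0.58, -0.96 and -0.81, and with slide as a block they were -1.78, -1.06, 0.057 and -1.61, so that Lef1 changed sign. None of these 4 genes passed the test. The counts by role stand beside 52.1% of all probes below 0.

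WT 2 was the highest array for each of the 3 matched ligands of the members. Ccl21c encodes a form of CCL21, and its probe may also read the near-identical copies Ccl21a and Ccl21b, which were not matched to probes of their own. It read 3349, 28035, 1279 and 368 in WT, and 313, 52.6, 296, 1686 and 648 in hNAG-1, with a log2 difference of -2.88 (exact permutation p = 0.0952) and -1.73 without WT 2. Ccl19 read 2864, 15919.6, 494 and 323 in WT, and 375, 247, 369, 2276 and 406 in hNAG-1. For both chemokines WT 2 was highest, followed by WT 1 and then hNAG-1 4, the order seen for Cd3d, Cd3g and Ccr7. Cd48, the ligand of CD2, had another order, with 2656 in WT 2, 1339 in hNAG-1 4, 687 in WT 3, 590 in WT 4 and 518 in WT 1, and its log2 difference was -0.64 (exact permutation p = 0.381). In the MS4A4-related list 5 of 7 genes were below 0, against 52.1% of all probes, and none passed the unadjusted limit. The largest difference was that of Ms4a4c at -0.71 (exact permutation p = 0.46). Ms4a4c read 1936 in WT 2 and 1397 in hNAG-1 4, and between 99.6 and 256 on the other arrays.

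The summed levels of B cell, lymph node stroma and leukocyte genes were also highest in WT 2. The summed level of 12 B cell genes ran from 1343 to 41718 in WT and from 922 to 6015 in hNAG-1. Of these genes 12 of 12 were below 0, against 52.1% of all probes. Their median log2 difference was -1.39, and -0.39 without WT 2, beside -0.02 and -0.04 for all probes. WT 2 was the highest array for 11 of the 12, against 11.3% of all probes. Cd79b, a chain of the B cell receptor complex, read 19322 in WT 2, 2937 in WT 1 and 2681 in hNAG-1 4, and between 211 and 649.6 elsewhere. The 4 matched lymph node stroma genes summed to 1196 to 50423 in WT and 663 to 11318 in hNAG-1. WT 2 was highest for 2 of the 4, the ligands Ccl21c and Ccl19 already described. Cxcl13, a chemokine that attracts B cells, was highest in hNAG-1 4, at 6920 beside 6256 in WT 2. Madcam1, an adhesion molecule of vessels, had a log2 difference of 0.44 and read 212 in WT 2 and 436 in hNAG-1 4. The 8 genes shared by all leukocytes summed to 10766 to 94774 in WT and 9367 to 32620.2 in hNAG-1, with 8 of 8 highest in WT 2.

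The wider T cell list and the lists that follow differed less between arrays. The 41 matched genes of the wider T cell list summed to 15802 to 56527 in WT and 13951 to 18594 in hNAG-1. Thy1 alone added 12489 to the sum in WT 2. In WT 2 that list stood at 3.30 times the median of the arrays, and the NK and cytotoxic genes at 3.26. The 9 NK and cytotoxic genes summed to 1690.0 to 5975 in WT and 1437 to 4094 in hNAG-1, and the 8 macrophage genes to 79957 to 165764 and 71754 to 229543, with hNAG-1 4 as the highest macrophage array, where Lyz2 alone added 186439 to the sum. The 7 luminal epithelium genes had their lowest sum in WT 2, at 0.702 times the median of the arrays. The sum of the adipocyte genes stood at 0.774 times the median in WT 2, where Fabp4, which added 197634 to that sum, was at its lowest, while Adipoq, Plin1, Cidec, Lep and Retn were lowest in WT 1. Endothelial genes lay at 0.978 in WT 2. Of the B cell genes 5 of 12 were well above background on all arrays, while Pax5 was so on 3 and Blk on 2. The part of B cells, of lymph node tissue or of slide in the levels of the T cell genes was not tested.

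**Figure D3:**
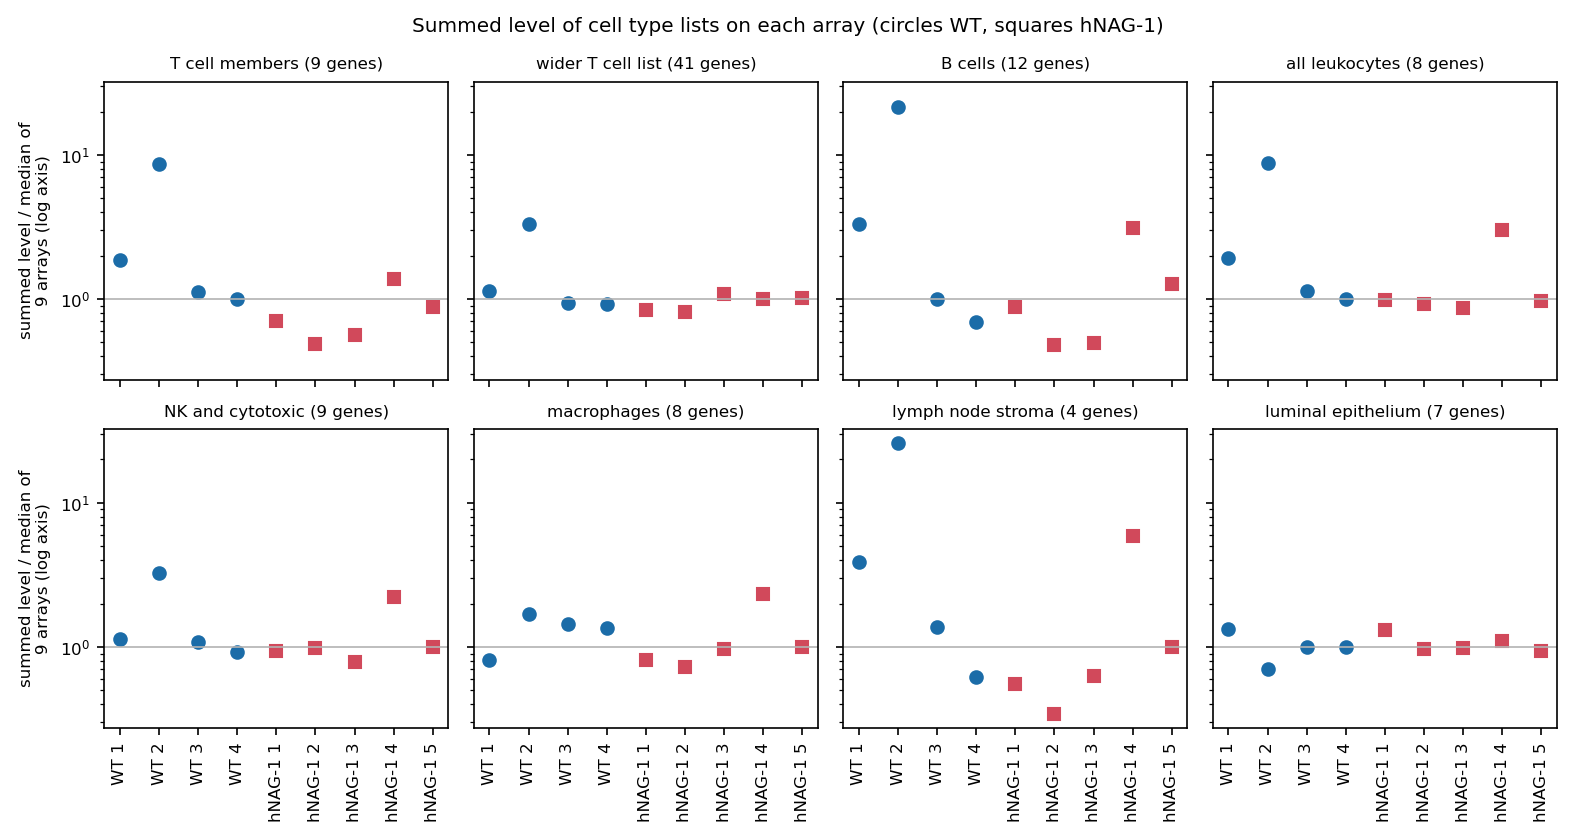
Summed scaled intensity of 8 cell type lists on each array, divided by the list's median over the 9 arrays (log axis), with circles for WT and squares for hNAG-1. WT 2 stands at 8.70 for the T cell members, 3.30 for the wider T cell list, 21.7 for B cells, 26.0 for lymph node stroma and 0.702 for luminal epithelium.

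To find genes with a like pattern, the log2 levels of each probe were centred on their mean over the 9 arrays and set against the mean centred profile of the members' brightest probes, which for Ms4a4b was A_52_P306949, the probe unlike the other 3, and for Cd3e and Cd4 were the nearly level ones. That profile stood at 2.72 in WT 2, 0.80 in WT 1 and 0.36 in hNAG-1 4, and between -1.15 and -0.29 on the other 6 arrays. Of 23077 probes of other genes well above background on all arrays, the smallest root mean square difference was 0.12 on the log2 scale, for 5830416P10Rik, followed by 0.18 for Ralgps2. Also among the closest 10 genes were Prkcq, the protein kinase C theta of T cell receptor signaling, and Dtx1, each at 0.22, and Tbc1d10c and Itgb7, a beta integrin of lymphocytes, each at 0.23. Tspan32 stood at 0.25, and Icosl, the ligand of the T cell costimulator ICOS, and AI467606 at 0.26. Of the members, Cd3g came closest to their mean profile at 0.28, and the flat probes of Cd3e and Cd4 were farthest at 0.99 and 1.00. The points are 9 arrays on 3 slides, and the likeness is a description.

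**Figure D4:**
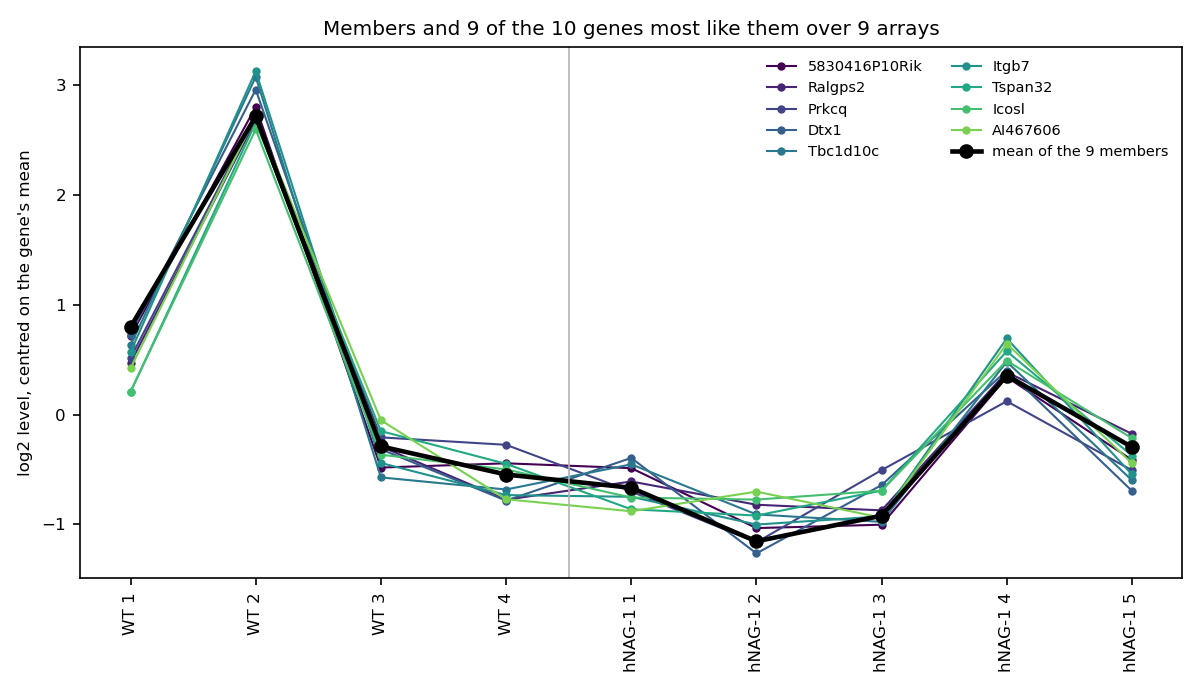
Log2 level of 9 of the 10 most alike genes and the mean of the 9 members (black), each centred on its mean over the arrays. All lines peak in WT 2, where the member mean is 2.72, and have a lower second rise in hNAG-1 4, at 0.36.

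The 3 CD3 genes lie on chromosome 9, and their promoter windows are shown because they feed 1 complex while their probes differed. The windows hold 250 bases before to 50 bases after the start, taken from RefSeq in build GRCm38.p6, and windows of 6 of the 9 members were used here. Capitals mark AGGAAG, an ETS-type motif, on either strand (CTTCCT on the reverse), and TGTGGT, a RUNX-type motif, was also searched on both strands (ACCACA).
Cd3g, chr9:44980382-44980681, minus strand: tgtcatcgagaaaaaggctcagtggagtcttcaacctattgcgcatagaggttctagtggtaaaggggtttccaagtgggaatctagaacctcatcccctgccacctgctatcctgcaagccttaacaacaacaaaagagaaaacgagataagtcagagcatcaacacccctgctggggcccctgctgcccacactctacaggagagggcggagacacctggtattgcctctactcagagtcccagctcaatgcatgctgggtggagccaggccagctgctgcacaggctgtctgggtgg
Cd3d, chr9:44981536-44981835, plus strand: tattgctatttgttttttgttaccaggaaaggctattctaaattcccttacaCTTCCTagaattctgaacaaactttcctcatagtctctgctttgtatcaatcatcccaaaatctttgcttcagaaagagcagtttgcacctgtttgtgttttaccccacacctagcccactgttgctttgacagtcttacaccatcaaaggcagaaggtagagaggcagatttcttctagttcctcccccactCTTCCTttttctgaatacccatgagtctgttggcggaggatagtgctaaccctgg
Cd3e, chr9:45009562-45009861, minus strand: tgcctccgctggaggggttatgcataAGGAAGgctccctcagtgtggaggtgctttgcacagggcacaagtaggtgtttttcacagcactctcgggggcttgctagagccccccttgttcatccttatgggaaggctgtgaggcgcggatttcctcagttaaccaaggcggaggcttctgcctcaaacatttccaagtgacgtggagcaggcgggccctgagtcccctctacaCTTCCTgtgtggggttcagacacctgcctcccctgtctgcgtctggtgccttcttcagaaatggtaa
The Cd3g and Cd3d windows are 854 bases apart on opposite strands, and Cd3d and Cd3e are 27726 bases apart. The ETS letters occur in 2 places each in the Cd3d and Cd3e windows and in none in that of Cd3g. They occur in 4 of 7 member windows, which include 2 of Lck, and in 35.4% of all 32851 windows. The RUNX letters occur in 1 of 7 member windows, an Lck window, and in 16.8% of all. These matches are letters in a window, and binding was not measured.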

How the data were processed

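RNA of mammary gland number 4 was measured on 9 Agilent arrays, 1 per mouse (4 WT, 5 hNAG-1). The authors deposited the scanner output of Feature Extraction 9.5.3.1, an intensity per feature with background subtracted and no scaling between arrays; the deposited series table held the same intensity values. Control features were left out, each array was scaled to the 75th percentile of its features, and replicate features were averaged. Genotypes were compared with limma 3.58.1 in R 4.3.3 (lmFit and eBayes on log2, two-sided, no covariates), with Benjamini-Hochberg adjustment over 41174 probes. Single probes were also given an exact permutation test over 126 splits (56 without WT 2). The fit was tested on simulated data. The number of arrays limits the precision, and 12 of 16 member probes were well above background on all 9 arrays.

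Members and gene lists were chosen with earlier results of these data known. Named genes are all members, and of the other T cell, ligand and MS4A4-related genes those with an unadjusted p under 0.05 at the brightest probe or the largest difference of their role, and the 10 most alike, of which 1 is not reported here. Cd79b, Pax5, Blk, Ccl19, Cd48, Cxcl13, Madcam1, Lyz2, Thy1, the adipocyte genes, Cd247, Tcrg and Cd40lg were named after their values were seen. Names follow the array's design or RefSeq accessions (GRCm38.p6). The alternatives were another background correction, scaling, source table, flag and dim-probe filter, test, array weights, slide or replicate block, the brightest probe, and each array left out. The methods' test is a one-way ANOVA per probe, given here only as counts.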

Additional observations from a re-analysis of the deposited data

Results flagged for a closer look

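Within a genotype, 50 sets of values were searched for an array that stands apart by Dixon's ratio, the gap to the nearest array divided by the range of the log2 levels, and held against its 95% limit. There were 9 such values, where chance gives about 1 in 20 for a single set. The sets are not independent, since they hold several probes of a gene and several lists on the same arrays. The 9 can therefore not be held against that share. Array hNAG-1 4 was the highest hNAG-1 array for Lck (ratio 0.874) and for Ms4a4b on the probes A_51_P136288 (0.86), A_51_P136289 (0.898) and A_51_P136294 (0.839). It also stood apart in the summed levels of the NK and cytotoxic genes (0.767), the macrophage genes (0.728) and the leukocyte genes (0.898). WT 2 was the array that stood apart in WT for the summed NK and cytotoxic genes (0.836) and the wider T cell list (0.834). No single member probe passed the limit in WT on that scale.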

How the results depend on the processing

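The 16 member probes gave 398 single values under 25 alternatives. Of these, 381 kept their direction and their side of the adjusted threshold, 17 changed sign and none passed it. Some alternatives could not change a sign, because the series table, the methods' test and the other eBayes settings leave the differences as reported. Slide 3 alone gives the same differences as slide as a fixed block, and the replicate block those without hNAG-1 5. The 381 is therefore not a count of independent checks. No alternative gave a member probe an adjusted p under 0.05. The count lower at an unadjusted p under 0.05, 3 as reported, was 1 with the methods' test, also after quantile normalization, and 0 with slide as a fixed block, on slide 3 alone, and in the slide block fit that leaves out WT 2. The count over the wider T cell list, 8 as reported, was 4 with normexp, with the brightest probe of each gene and with quantile normalization and the methods' test, 5 with quantile normalization, the methods' test or slide as a random block, 0 with slide as a fixed block and on slide 3 alone, and 1 in the slide block fit that leaves out WT 2. Leaving out 1 array at a time gave 1 to 6 member probes, 0 at the adjusted limit, 4 to 16 probes of the wider list and a median of -1.77 to -0.35. The lowest counts of 1 came without WT 2, hNAG-1 2 or hNAG-1 3, and the highest, 5 and 6, without WT 3 or WT 4. The median was -0.40 with array weights. Median scaling moved the median of all probes to 0.20 and no scaling to -0.16, with -1.06 and -1.42 for the members.

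With slide as a block and WT 2 left out, the median of the members turned to 0.15, and the differences that changed sign were Cd3d 0.20, Cd3e A_52_P86404 0.30, Cd3g 0.43, Lck 0.20, Cd8a A_51_P345121 0.15 and A_52_P150547 0.15, Cd4 A_51_P236573 0.57 and A_52_P383089 0.54, Cd2 0.092, Ccr7 0.42 and Ms4a4b A_51_P136288 0.070. Cd4 A_52_P383089 was also 0.46 with slide as a block and on slide 3 alone. Cd3e A_51_P455681 was 0.045 with median scaling. Cd3e A_52_P86404 was 0.071 with array weights and 0.14 without WT 2, and ran from -1.04 to 0.14 as arrays were left out in turn, and Ms4a4b A_51_P136288 was 0.013 with array weights. Cd3e A_52_P86404 and Cd4 A_51_P236573 had no hNAG-1 level well above background, so their values here are fitted differences near background and not measured folds. The cause of these changes was not tested.

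The labels give replicate numbers and state no pairing of mice. Same-numbered arrays correlated at 0.33, -0.23, -0.16 and -0.35 in their deviations from the group means over 23089 probes. These deviations also hold differences between slides and single arrays, so they cannot decide whether mice were paired. With the replicate block, 3 member probes were lower at an unadjusted p under 0.05, 0 passed after adjustment, the median was -1.26, and 10 probes of the wider list were lower. The number of arrays and the signal over background of 4 member probes limit what can be seen.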
